A study of Mus musculus with 9 samples.

Results

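Secreted Wnt antagonists and Wnt target genes were examined in the cerebellum of mice at postnatal day 5. The 10 genes were a list of names, with no threshold on a measured value, chosen with earlier results of these data known. They are the secreted antagonists Wif1, Sfrp1, Sfrp2, Sfrp5, Frzb, Dkk2 and Dkk3 and the target genes Axin2, Lef1 and Nkd1. All 10 were measured, by 12 probe sets that each carried a single gene symbol, among 19147 genes in all. The study set 2 lines with activated Smoothened, the transducer of Sonic hedgehog signals at the cell membrane, against wild type. The groups were SmoA2, Smo/Smo and wild type, with 3 mice and 1 custom Affymetrix array per mouse in each, all of strain C57BL/6. Per the design text, the SmoA2 transgene runs from a fragment of the ND2 (Neurod2) promoter, which works in precursors of granule neurons. The design text speaks of SmoA1 and SmoA2 lines, and whether the mice labelled Smo/Smo are the SmoA1 line is not stated. Each array had its own animal code. Smo/Smo mice carry codes with a different prefix, so source and genotype cannot be told apart for them.

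Wnt ligands bind Frizzled receptors and Lrp co-receptors, which stabilises beta-catenin and switches on target genes through Tcf and Lef factors. Secreted antagonists act outside the cell. Wif1 and the Sfrp proteins, of which Frzb is one, bind Wnt ligands, and Dkk2 binds the Lrp co-receptors. Dkk3 is a divergent Dkk family member. Axin2 and Nkd1 are feedback inhibitors that the pathway itself induces, and Lef1 is both a nuclear factor of the pathway and one of its targets. In the cerebellum, Wnt signals act at the midbrain-hindbrain boundary during patterning and later at granule neuron synapses. Medulloblastomas with an active Wnt pathway form a tumour group apart from those with an active hedgehog pathway.

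Values are log2 of the deposited RMA intensities, and log2 fold changes carry standard errors from 1 limma model of all 9 arrays. A call needs an adjusted p under 0.05 by the Benjamini-Hochberg method, over all 19147 genes. Array medians lay between 91.0 and 95.1 intensity units, and the number of arrays limits the precision. The 4 Y-linked probe sets read 2.23 to 5.57 in the 4 female mice, which gives an indication of background. There was 1 female in SmoA2, 1 in Smo/Smo and 2 in wild type. Of 12 markers of the granule neuron lineage, 11 were measured and none had a mean in the background range. Their summed log2 intensity was 15.19 to 15.25 in SmoA2, 15.24 to 15.31 in Smo/Smo and 15.24 to 15.28 in wild type. In SmoA2 against wild type, 5 of the 11 log2 fold changes lay above 0 and 6 below, with a median of -0.031. Over all genes, 2.69% were called there and 2.56% in SmoA2 against Smo/Smo. Within the granule neuron list Atoh1, the transcription factor of granule neuron precursors, was the 1 gene called. It averaged 10.49 in SmoA2, 9.79 in Smo/Smo and 9.67 in wild type, with log2 fold changes of 0.82 ± 0.07 in SmoA2 against wild type (limma adjusted p = 0.000703) and 0.70 ± 0.07 against Smo/Smo (limma adjusted p = 0.00189). Of 10 measured brainstem and midbrain markers, 6 lay in the background range. In bulk tissue, fewer cells of a type and less RNA per cell cannot be told apart.

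In SmoA2, 3 of the 10 genes differed from wild type, all of them secreted antagonists. Sfrp2 rose 2.39-fold, Sfrp1 rose 1.47-fold and Wif1 was 2.32-fold lower. Over all genes, 2.69% were called in this comparison, 0.961% as higher and 1.73% as lower. The members were chosen with earlier results of these data known, so these shares do not test the list. In Smo/Smo, 0 of the 10 genes were called against wild type by limma, where 0.371% of all genes were, 0.214% as higher and 0.157% as lower. At an unadjusted p under 0.05, 1 of the 10 passed in Smo/Smo, namely Sfrp1, and 5 passed in SmoA2, the 3 called genes with Dkk2 and Dkk3. Over all genes that share was 8.77% in Smo/Smo, near that of the members, and 14.8% in SmoA2. Between the mutant lines directly, Sfrp2 was higher and Wif1 lower in SmoA2, where 2.56% of all genes were called, 1.02% as higher and 1.54% as lower. A moderated F-test over the 3 groups called Sfrp2, Wif1 and Sfrp1 and 2.89% of all genes. The median log2 fold change of the 10 genes was 0.015 in SmoA2 and 0.048 in Smo/Smo, beside 0.0059 and 0.0055 over all genes.

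The stretches upstream of Sfrp2 and Wif1 are shown because these are the members with the largest rise and the largest fall in SmoA2. Each is the 250 bases before the transcription start in RefSeq, build GRCm38.p6, printed 5′ to 3′, with CG dinucleotides in capitals. CG-rich stretches before the starts of WIF1 and SFRP genes are known sites of DNA methylation in human tumours, and methylation was not measured here. The Sfrp2 stretch lies at chr3:83766071-83766320 on the plus strand and the Wif1 stretch at chr10:121033754-121034003 on the plus strand.
Sfrp2: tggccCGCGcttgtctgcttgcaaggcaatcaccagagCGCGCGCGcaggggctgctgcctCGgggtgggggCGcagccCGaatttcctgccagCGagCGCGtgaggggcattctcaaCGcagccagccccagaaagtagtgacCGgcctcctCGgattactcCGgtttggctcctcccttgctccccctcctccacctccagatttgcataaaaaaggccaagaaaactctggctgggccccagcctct
Wif1: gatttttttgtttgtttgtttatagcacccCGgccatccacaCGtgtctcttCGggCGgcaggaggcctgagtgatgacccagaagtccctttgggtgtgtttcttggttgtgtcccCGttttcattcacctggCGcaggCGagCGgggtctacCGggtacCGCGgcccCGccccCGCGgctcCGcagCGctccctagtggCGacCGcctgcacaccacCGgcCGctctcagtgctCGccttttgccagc
The Sfrp2 stretch holds 16 CG dinucleotides and 63.6% G and C, and the Wif1 stretch holds 21 and 62.8%. The medians over 32851 promoters are 6 CG dinucleotides and 52.4% G and C. The gene that rose and the gene that fell therefore both have more CG dinucleotides than the median promoter. So do members that were not called, Axin2 with 24, Frzb with 16, Sfrp5 with 13 and Dkk2 with 7. The 4 Lef1 promoters hold 11, 14, 6 and 5, and that of Nkd1 holds 6. Fewer CG dinucleotides than in the Sfrp2 and Wif1 stretches were found in 74.6% and 83.7% of all promoters. The RefSeq table held promoters of 8 of the 10 genes, 11 in all with 4 for Lef1, and none for Sfrp1 or Dkk3. The Tcf and Lef motifs CTTTGAT and CTTTGAA and the Gli motif GACCACCCA were searched on both strands in windows of 300 bases. They occur in 3.73%, 5.14% and 0.253% of all promoters and in 0 of these 11. This says only that these letters are not in these windows.

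Sfrp2, a secreted Frizzled-related protein, separated the SmoA2 mice from all others. Its log2 intensity was 9.44, 9.50 and 9.54 in SmoA2, 8.44, 8.35 and 8.29 in Smo/Smo, and 8.31, 8.20 and 8.20 in wild type. The 3 SmoA2 mice lay well above all other mice, while the Smo/Smo and wild type mice overlapped. Against wild type the log2 fold change in SmoA2 was 1.26 ± 0.06 (SE, n = 3 per group, limma adjusted p = 2.111e-05). By p-value this gene stood at rank 8 of the 19147 genes. In Smo/Smo the difference from wild type was 0.13 ± 0.06 (limma adjusted p = 0.639), with a 95% interval of -0.018 to 0.27. SmoA2 exceeded Smo/Smo by 1.13 ± 0.06 (limma adjusted p = 5.392e-05), which also tests the difference between their comparisons with wild type. All 9 fits with 1 array left out kept both Sfrp2 calls, with log2 fold changes of 1.23 to 1.29 against wild type and 1.10 to 1.17 against Smo/Smo.

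Sfrp1, the relative of Sfrp2 that binds Wnt ligands in the same way, stood in 3 steps on the probe set with the higher signal. Its log2 intensity was 12.63, 12.40 and 12.65 in SmoA2, 12.25, 12.26 and 12.29 in Smo/Smo, and 12.03, 11.89 and 12.09 in wild type. No group overlapped another, and Smo/Smo lay between SmoA2 and wild type. Such separation is found in 19.1% of all genes for SmoA2 against wild type, 15.9% for Smo/Smo against wild type and 18.2% for SmoA2 against Smo/Smo. SmoA2 exceeded wild type by 0.55 ± 0.08 (log2 fold change, limma adjusted p = 0.00851). The difference between Smo/Smo and wild type was 0.26 ± 0.08 (95% interval 0.075 to 0.45, limma adjusted p = 0.368). That between SmoA2 and Smo/Smo was 0.29 ± 0.08 (95% interval 0.11 to 0.48, limma adjusted p = 0.115). Neither of these smaller steps passed the test over all genes.

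The other Sfrp1 probe set gave the same order. It read 12.06, 11.79 and 11.98 in SmoA2, 11.45, 11.51 and 11.51 in Smo/Smo, and 11.27, 11.24 and 11.19 in wild type. With every probe set tested, its log2 fold change was 0.71 ± 0.08 in SmoA2 against wild type (limma adjusted p = 0.00160) and 0.45 ± 0.08 against Smo/Smo (limma adjusted p = 0.0175). Here the call between the mutant lines was made, unlike on the first probe set. Smo/Smo against wild type was 0.26 ± 0.08 (limma adjusted p = 0.300). Of the 24478 probe sets, 2.28% were called in SmoA2 against wild type, 0.351% in Smo/Smo against wild type and 2.12% between the mutant lines. On the first probe set, the SmoA2 call against wild type was lost in the fit that left out SmoA2 replicate 3 together with wild type replicate 3 (limma adjusted p = 0.0533, log2 fold change 0.55). Without SmoA2 replicate 2 alone, the difference between the mutant lines on that probe set was called (0.37, limma adjusted p = 0.0416).

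Wif1, a secreted inhibitor that binds Wnt ligands through its own WIF domain, ran the other way. Its log2 intensity was 5.91, 5.64 and 5.39 in SmoA2, 6.77, 6.51 and 6.68 in Smo/Smo, and 6.94, 6.84 and 6.80 in wild type. The SmoA2 mice lay below all others, and the lowest of them lay inside the background range. SmoA2 stood 1.21 ± 0.12 below wild type on the log2 scale (log2 fold change -1.21, limma adjusted p = 0.00142). By size this fall had rank 11 of the 19147 genes. SmoA2 also stood below Smo/Smo, 2.01-fold (log2 fold change -1.004 ± 0.12, limma adjusted p = 0.00429). Smo/Smo against wild type was -0.21 ± 0.12 (95% interval -0.49 to 0.073, limma adjusted p = 0.713), although the highest Smo/Smo mouse lay just below the lowest wild type mouse. All 9 fits with 1 array left out kept both Wif1 calls, with adjusted p up to 0.00961 against wild type and up to 0.0248 against Smo/Smo.

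**Figure D1:**
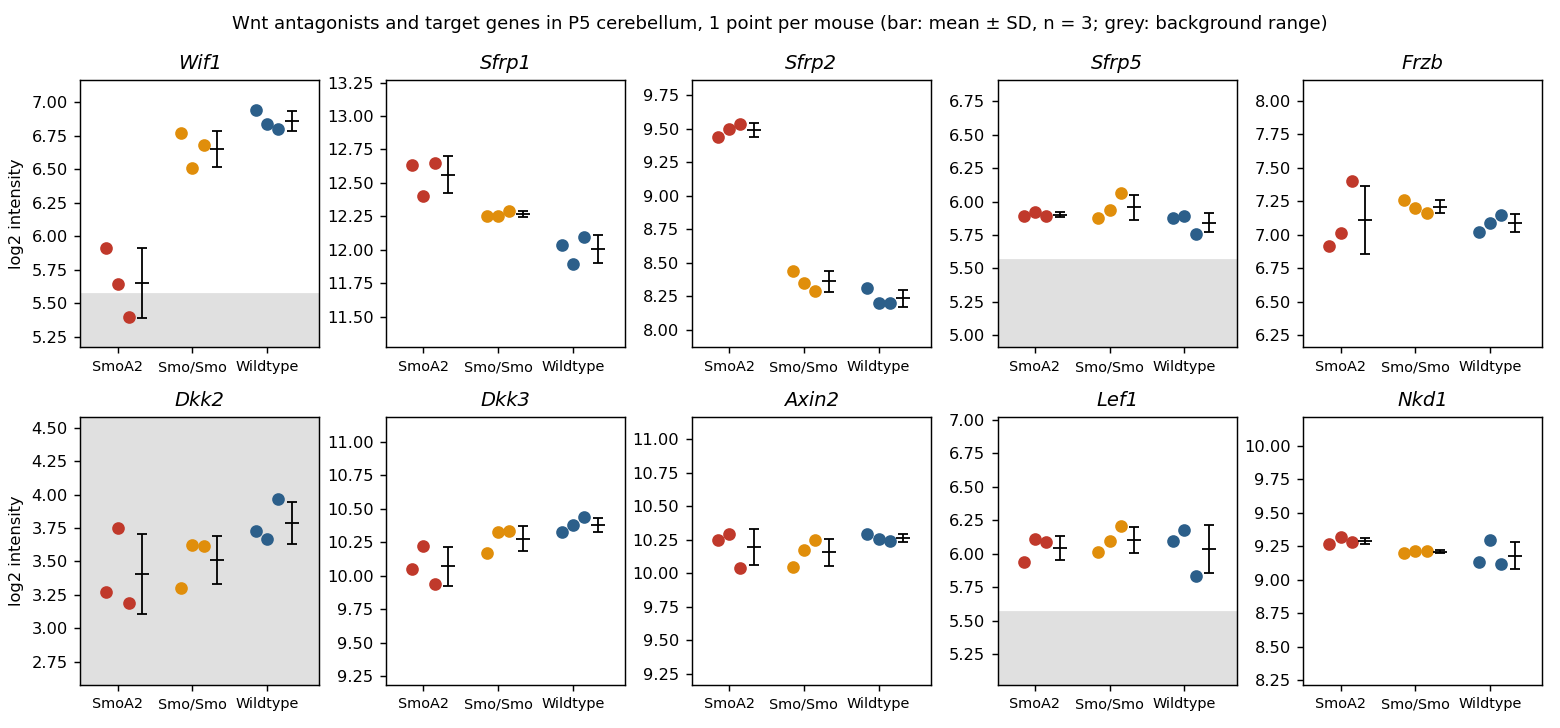
Log2 intensity of the 10 genes in each mouse, by group, on axes of equal span. Points are mice, the bars to their right are mean ± SD (n = 3), and grey marks the background range up to 5.57. The 3 SmoA2 mice stand apart upward in Sfrp2 and downward in Wif1, and Sfrp1 falls in 3 steps across SmoA2, Smo/Smo and wild type.

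The other secreted antagonists were not called. Dkk3 had log2 intensities of 10.05, 10.23 and 9.93 in SmoA2, 10.17, 10.32 and 10.34 in Smo/Smo, and 10.33, 10.38 and 10.44 in wild type. All SmoA2 mice lay below all wild type mice, and Smo/Smo overlapped both groups. The log2 fold change in SmoA2 was -0.31 ± 0.08 (95% interval -0.50 to -0.12, limma adjusted p = 0.106), and it was called without SmoA2 replicate 2 (-0.39, limma adjusted p = 0.0479). The other Dkk3 probe set had means of 5.50 in SmoA2, 5.42 in Smo/Smo and 5.68 in wild type, at the edge of the background range. It gave -0.19 ± 0.12 in SmoA2 with every probe set tested (limma adjusted p = 0.525).

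Frzb, also known as Sfrp3, did not follow Sfrp1 and Sfrp2. It read 6.92, 7.02 and 7.40 in SmoA2, 7.26, 7.20 and 7.17 in Smo/Smo, and 7.02, 7.09 and 7.15 in wild type. The SmoA2 mice spanned the other groups, with replicate 3 highest, and the log2 fold change was 0.022 ± 0.11 (95% interval -0.23 to 0.28, limma adjusted p = 0.952). Sfrp5 stayed between 5.76 and 6.06 in all 9 mice, a little above the background range. Its log2 fold change was 0.059 ± 0.066 in SmoA2 (limma adjusted p = 0.735) and 0.11 ± 0.07 in Smo/Smo (limma adjusted p = 0.697). Dkk2 read 3.19 to 3.97 in all 9 mice, within the background range in every group, so its difference of -0.38 ± 0.15 in SmoA2 (limma adjusted p = 0.283) lies between background readings. In SmoA2 against wild type, the 95% intervals of Frzb and Sfrp5 end below the 0.55 of Sfrp1.

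**Figure D2:**
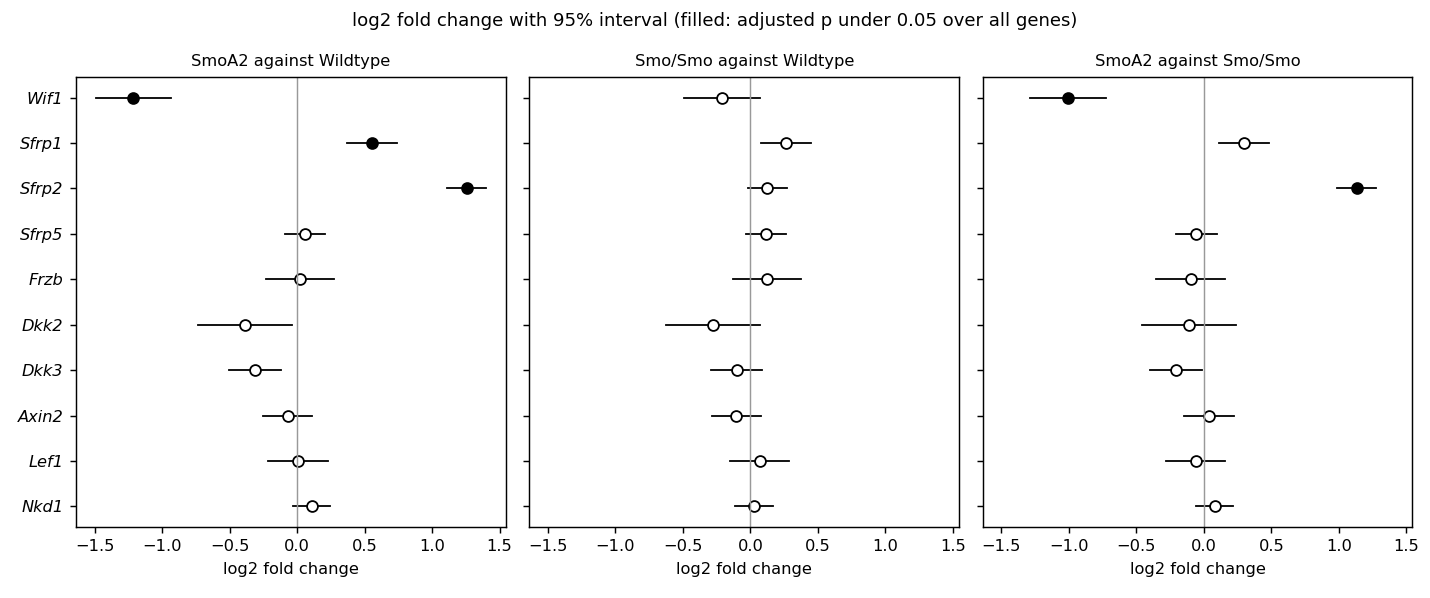
Log2 fold changes of the 10 genes in the 3 comparisons, with 95% intervals from the limma model and filled points for calls. In SmoA2 against wild type Sfrp2 stands at 1.26, Sfrp1 at 0.55 and Wif1 at -1.21, while Axin2, Lef1 and Nkd1 lie within 0.11 of 0 in each comparison with wild type.

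The target genes Axin2, Lef1 and Nkd1 were called in none of the 3 comparisons, and none had an unadjusted p under 0.05 in limma. Axin2, the feedback scaffold of the beta-catenin destruction complex, read 10.25, 10.29 and 10.04 in SmoA2, 10.05, 10.17 and 10.25 in Smo/Smo, and 10.29, 10.26 and 10.24 in wild type. All 3 groups overlapped. Its log2 fold change was -0.068 ± 0.081 in SmoA2 (95% interval -0.25 to 0.11, limma adjusted p = 0.749) and -0.11 ± 0.08 in Smo/Smo (95% interval -0.29 to 0.076, limma adjusted p = 0.782).

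Nkd1, which restrains Dishevelled, read 9.27, 9.32 and 9.28 in SmoA2, 9.20, 9.22 and 9.22 in Smo/Smo, and 9.13, 9.30 and 9.11 in wild type. The wild type mice spanned the range of the Smo/Smo mice, and the SmoA2 mice lay above the Smo/Smo mice. The log2 fold change was 0.11 ± 0.06 in SmoA2 (95% interval -0.033 to 0.25, limma adjusted p = 0.472) and 0.029 ± 0.062 in Smo/Smo (95% interval -0.11 to 0.17, limma adjusted p = 0.941). Lef1, a DNA-binding partner of beta-catenin, read 5.94, 6.11 and 6.09 in SmoA2, 6.01, 6.10 and 6.20 in Smo/Smo, and 6.10, 6.18 and 5.84 in wild type, a little above the background range. Its log2 fold change was 0.0074 ± 0.097 in SmoA2 (95% interval -0.21 to 0.23, limma adjusted p = 0.985) and 0.068 ± 0.097 in Smo/Smo (95% interval -0.15 to 0.29, limma adjusted p = 0.907). The 95% intervals of the 3 target genes all lay between -0.29 and 0.29 in both lines against wild type.

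A list of 90 other Wnt pathway genes was read beside these, and 80 were measured. It was chosen with earlier results of these data known, so the shares given here do not test it. In SmoA2, 3 were called higher and 3 lower against wild type, 6 of 80 genes, beside 2.69% of all genes. In Smo/Smo none was called by limma, and 11 of the 80 had an unadjusted p under 0.05, beside 8.77% of all genes. In SmoA2 against wild type, 28 of the 80 had an unadjusted p under 0.05 in limma, beside 14.8% of all genes. The list's median log2 fold change was 0.0057 in SmoA2 and 0.0052 in Smo/Smo, close to the medians of all genes. Between SmoA2 and Smo/Smo, 1 of the 80 was called higher and 3 were called lower, beside 1.02% and 1.54% of all genes. At an unadjusted p under 0.05 in limma, 22 of the 80 passed there, beside 14.3% of all genes.

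Among 9 measured other target genes of the pathway, Ccnd1 rose and Sp5 and Tnfrsf19 fell in SmoA2. Ccnd1, the G1 cyclin that is also a target of hedgehog signals, had log2 intensities of 10.66, 10.33 and 10.96 in SmoA2, 10.37, 10.40 and 10.33 in Smo/Smo, and 9.82, 9.46 and 9.79 in wild type. Both mutant lines lay above wild type, with a log2 fold change of 0.96 ± 0.15 in SmoA2 (limma adjusted p = 0.0116) and 0.68 ± 0.15 in Smo/Smo (limma adjusted p = 0.161). The SmoA2 call of Ccnd1 against wild type held in 16 of 19 alternatives. It was lost without wild type replicate 2 (limma adjusted p = 0.0501) and without SmoA2 replicate 3 and wild type replicate 3 together (limma adjusted p = 0.0553). The fit of only the groups compared also lost it. Sp5, a zinc finger factor directly induced by beta-catenin, read 9.21, 9.58 and 9.48 in SmoA2, 9.84, 9.95 and 9.94 in Smo/Smo, and 9.96, 9.87 and 9.80 in wild type. The SmoA2 mice lay below all others, with log2 fold changes of -0.45 ± 0.09 against wild type (limma adjusted p = 0.0411) and -0.48 ± 0.09 against Smo/Smo (limma adjusted p = 0.0338). Tnfrsf19, a TNF receptor family gene known as a Wnt target, gave -0.38 ± 0.08 in SmoA2 against wild type (limma adjusted p = 0.0409). The calls of Sp5 and Tnfrsf19 against wild type each held in 1 of 9 fits with 1 array left out, that without SmoA2 replicate 2, with adjusted p up to 0.153 and 0.132. The call of Sp5 against Smo/Smo held in the same fit alone, with adjusted p up to 0.128.

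Among 18 measured ligands, Wnt9a fell in SmoA2, with log2 fold changes of -0.35 ± 0.08 against wild type (limma adjusted p = 0.0457) and -0.36 ± 0.08 against Smo/Smo (limma adjusted p = 0.0451). Wnt8a was called higher in SmoA2, but its group means of 3.44 in SmoA2, 3.31 in Smo/Smo and 3.12 in wild type lay in the background range. Among 8 other measured secreted antagonists, Draxin rose. It is a secreted axon guidance protein that binds Lrp6 and read 8.42, 8.31 and 8.66 in SmoA2, 7.94, 8.09 and 7.91 in Smo/Smo, and 8.05, 7.93 and 7.998 in wild type. The SmoA2 mice lay above all others, with log2 fold changes of 0.47 ± 0.09 against wild type (limma adjusted p = 0.0322) and 0.48 ± 0.09 against Smo/Smo (limma adjusted p = 0.0314). With 1 array left out, the calls against wild type held in 2 of 9 fits for Wnt9a (adjusted p up to 0.172) and 2 of 9 for Draxin (up to 0.118), both without SmoA2 replicate 2 or without Smo/Smo replicate 2. That of Wnt8a held in 1 of 9, without wild type replicate 1 (up to 0.134). Against Smo/Smo, the call of Wnt9a held in 1 of 9, without SmoA2 replicate 2 (up to 0.156), and that of Draxin in 2 of 9, without SmoA2 replicate 2 or 3 (up to 0.112).

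The nuclear factor Tcf7l1, largely a repressor of target genes, was lower in SmoA2 than in Smo/Smo, with a log2 fold change of -0.29 ± 0.06 (limma adjusted p = 0.0459), a call that held in 1 of 9 fits with 1 array left out, without SmoA2 replicate 2 (up to 0.156). Against wild type it stood at -0.16 ± 0.06 in SmoA2 (limma adjusted p = 0.250) and 0.13 ± 0.06 in Smo/Smo (limma adjusted p = 0.622). No receptor, R-spondin gene, membrane antagonist or intracellular core gene was called by limma in any comparison, among 13, 7, 6 and 10 measured. In SmoA2 against wild type, 4, 2, 2 and 2 of them had an unadjusted p under 0.05. In Smo/Smo against wild type these counts were 2, 2, 0 and 1, and between the mutant lines 4, 0, 3 and 1. Over all genes that share was 14.8% in SmoA2 and 8.77% in Smo/Smo against wild type and 14.3% between the mutant lines. The gene with the smallest F-test p in each of these roles is given. Fzd6, a Frizzled receptor, gave -0.35 ± 0.08 in SmoA2 against Smo/Smo (limma adjusted p = 0.0571). Against wild type it gave -0.18 ± 0.08 in SmoA2 (limma adjusted p = 0.338) and 0.17 ± 0.08 in Smo/Smo (limma adjusted p = 0.590). Lgr5, an R-spondin receptor and Wnt target, gave 0.50 ± 0.12 in SmoA2 (limma adjusted p = 0.0619) and 0.32 ± 0.12 in Smo/Smo (limma adjusted p = 0.461). Znrf3, a ligase that removes Frizzled receptors, gave -0.17 ± 0.07 in SmoA2 against wild type (limma adjusted p = 0.278) and -0.21 ± 0.07 against Smo/Smo (limma adjusted p = 0.181). Wls, which carries Wnt ligands to the cell surface, gave 0.24 ± 0.06 in SmoA2 (limma adjusted p = 0.0940) and 0.20 ± 0.06 in Smo/Smo (limma adjusted p = 0.380).

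**Figure D3:**
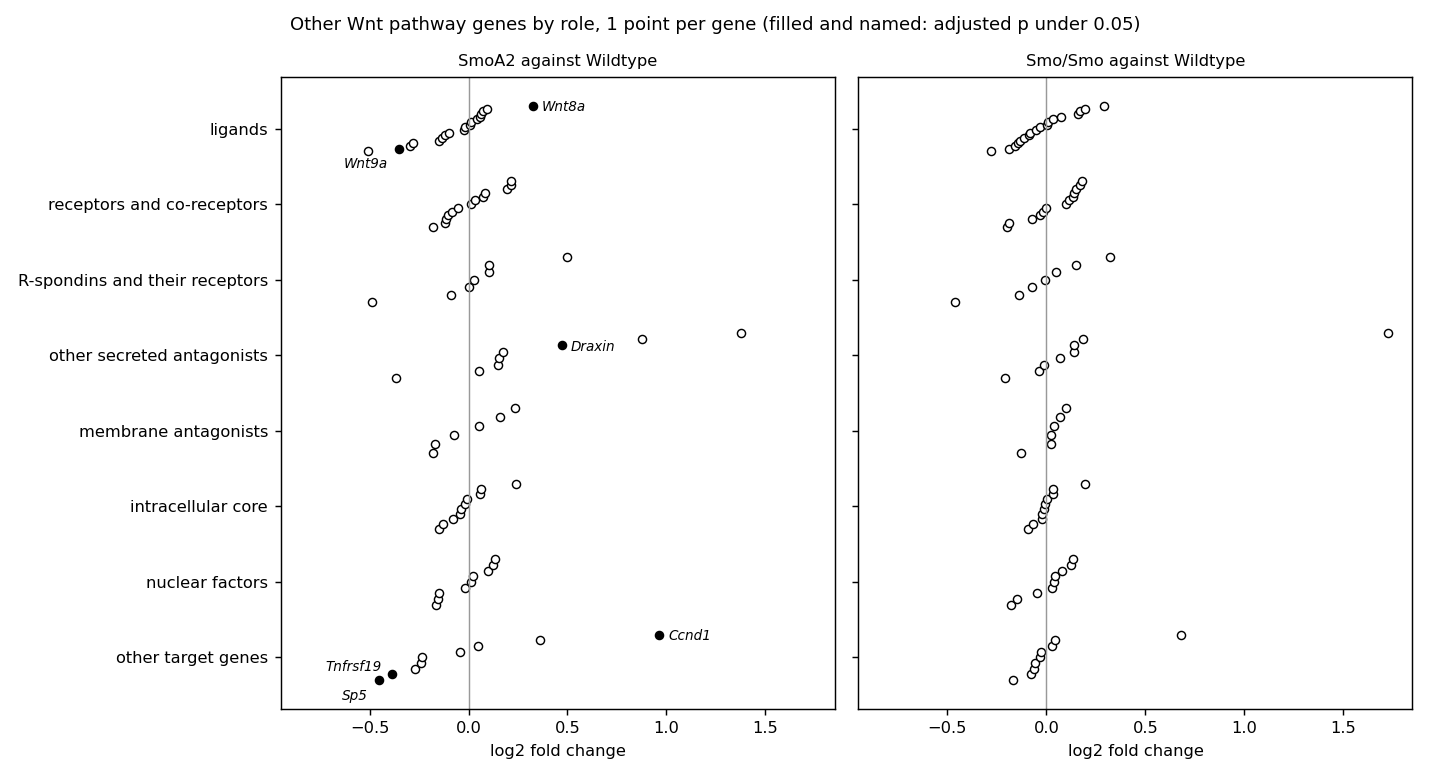
Log2 fold changes of 80 other Wnt pathway genes by role, for SmoA2 and for Smo/Smo against wild type. Each point is a gene, and filled, named points were called. The 3 genes called higher and the 3 called lower in SmoA2 are spread over ligands, secreted antagonists and target genes, and no point is filled for Smo/Smo.

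Markers of other cell types moved in the same arrays, and their part in the values of Wif1, Sfrp1 and Sfrp2 was not tested. Beside the counts of called markers below, 1.73% of all genes were called lower in SmoA2 against wild type and 0.961% higher. Bergmann glia and astrocytes were read by 15 markers. In SmoA2 against wild type, 12 of the 15 log2 fold changes lay below 0 and 3 above, with a median of -0.18. The highest was Etv4 at 0.30, which was not called (limma adjusted p = 0.119). Of the 15, 3 were called lower and none higher, with Gdf10 at -0.59 ± 0.06, Gjb6 at -0.95 ± 0.13 and Tnc at -0.37 ± 0.07 (log2 fold changes, limma adjusted p = 0.00156, 0.00701 and 0.0206). The summed log2 intensity of the 15 was 15.53 to 15.59 in SmoA2, 15.72 to 15.74 in Smo/Smo and 15.70 to 15.77 in wild type. Of 16 meningeal and fibroblast markers, 10 were called lower in SmoA2, with Slc22a6 at -1.42, Msln at -1.36 and Aldh1a2 at -1.57. Of the 16 log2 fold changes 15 lay below 0, and that of Lum lay above, at 0.38 (limma adjusted p = 0.220). The summed log2 intensity of the 16 was 13.93 to 14.17 in SmoA2, 14.33 to 14.41 in Smo/Smo and 14.42 to 14.46 in wild type. Both sums were lower in each SmoA2 mouse than in any other mouse.

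The sum of 13 endothelial and mural markers was 13.24 to 13.31 in SmoA2, 13.50 to 13.56 in Smo/Smo and 13.39 to 13.41 in wild type. Of these markers, 2 were called lower in SmoA2, Tek at a log2 fold change of -0.29 and Kdr at -0.30. In SmoA2 against wild type, 6 of the 13 had log2 fold changes above 0 and 7 below, with a median of -0.057. The sum of 10 choroid plexus markers was 12.98 to 13.23 in SmoA2, 13.24 to 13.44 in Smo/Smo and 10.92 to 12.59 in wild type, and wild type replicate 3 was the lowest. None of the 10 was called by limma in SmoA2 against wild type, and 9 had an unadjusted p under 0.05, beside 14.8% of all genes. Without wild type replicate 3, the calls of Sfrp2, Sfrp1 and Wif1 in SmoA2 remained. In these 4 lists the meningeal marker Msln, in SmoA2, was the 1 marker with a group mean in the background range.

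The sums of 8 Purkinje cell markers were 14.27 to 14.44 in SmoA2, 14.67 to 14.70 in Smo/Smo and 14.66 to 14.71 in wild type. All 8 had log2 fold changes below 0 in SmoA2 against wild type, with a median of -0.44. Each of the 8 had an unadjusted p under 0.05 in limma, beside 14.8% of all genes. Called lower were 3 of them, Lhx5 at -0.66, Rora at -0.45 and Pcp2 at -0.61. Sums of 10 microglia and macrophage markers were 12.26 to 12.57 in SmoA2, 11.96 to 12.16 in Smo/Smo and 12.19 to 12.31 in wild type. Of these 10 markers, Mrc1 was the 1 called lower in SmoA2 against wild type, at a log2 fold change of -0.72. None was called higher, while 8 of the 10 log2 fold changes lay above 0, with a median of 0.22. The sums of 7 oligodendrocyte lineage markers were 13.21 to 13.33 in SmoA2, 13.19 to 13.36 in Smo/Smo and 13.15 to 13.26 in wild type. The Purkinje sums thus separated SmoA2 from the other groups, and the oligodendrocyte sums overlapped in all 3 groups. Those of the brainstem and midbrain list were 11.11 to 11.44 in SmoA2, 11.46 to 11.51 in Smo/Smo and 11.55 to 11.76 in wild type. Barhl2 was the 1 marker of this list called lower in SmoA2 against wild type, at a log2 fold change of -0.52. None was called higher. Of the 10 measured markers, 7 had log2 fold changes above 0 in that comparison and 3 below, with a median of 0.028.

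**Figure D4:**
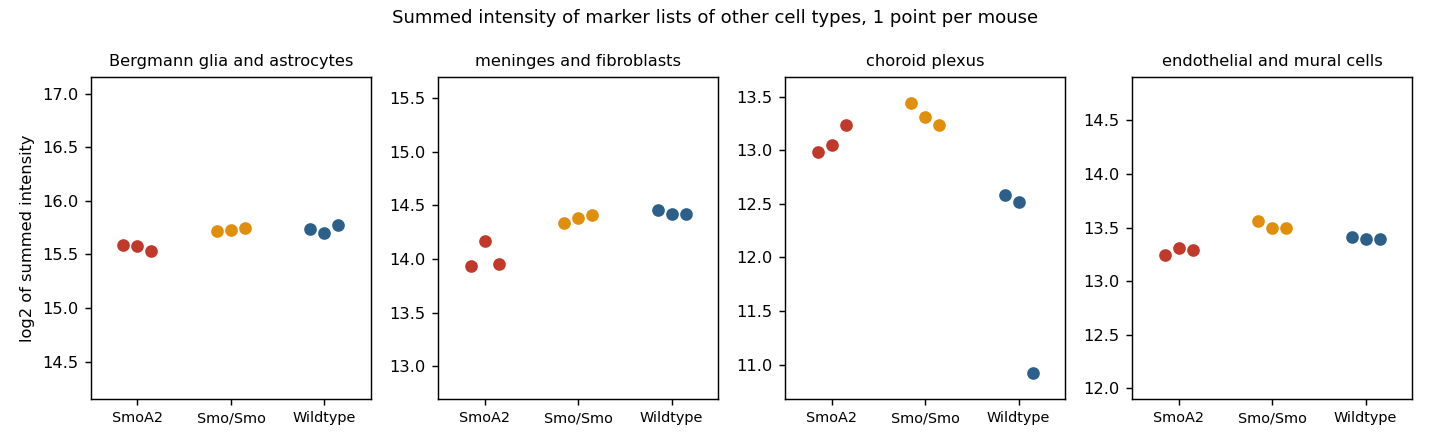
Log2 of the summed intensity of 4 marker lists in each mouse, by group, on axes of equal span. Bergmann glia and meningeal sums are lowest in the 3 SmoA2 mice, and the choroid plexus sum of wild type replicate 3, at 10.92, lies apart from the rest.

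The genes of most like pattern were sought for Sfrp2, Wif1 and Sfrp1, by the mean absolute difference of centred log2 values over the 9 mice. Nearest to Sfrp2 were Sox18, a SoxF transcription factor of endothelial cells, Syt15, a synaptotagmin gene, and Gm11541, at 0.088, 0.10 and 0.11. Sox18 had a log2 fold change of 1.26 in SmoA2 and 0.20 in Smo/Smo against wild type. Nearest to Wif1 were Sypl2, a synaptophysin-like gene, Ass1, an enzyme gene of arginine synthesis, and Fam180a, each at 0.13. Sypl2 had log2 fold changes of -1.42 in SmoA2 and -0.27 in Smo/Smo, Ass1 -0.98 and -0.039, and Fam180a -1.33 and -0.23. Nearest to Sfrp1 were Rftn1, a lipid raft protein gene, Rassf4, a gene of the Ras association domain family, and Gm11267, at 0.049, 0.059 and 0.060. Rftn1 had log2 fold changes of 0.47 in SmoA2 and 0.23 in Smo/Smo, and Rassf4 0.53 and 0.16. None of these genes belongs to the Wnt pathway list.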

How the data were processed

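Total RNA of 9 mouse brain samples, which the design text describes as cerebella, was measured on 1 custom Affymetrix array each. The deposited values are probe set intensity, made by the authors with RMA per the submitters' processing notes, which give no version. They are on a linear scale, and log2 was taken here. Of 38385 probe sets, 24478 carried 1 gene symbol in the platform annotation, 65 several and 13842 none. Only the first kind was used, and for each of 19147 genes the probe set with the highest mean stood for the gene.

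Groups came from sample titles. All tests used limma 3.58.1 (lmFit and eBayes) in R 4.3.3, in 1 model of the 9 arrays, with group means, without covariates, and with Benjamini-Hochberg adjustment over all genes. The fit was tested on simulated data. The members and gene lists were chosen with earlier results of these data known. Other Wnt pathway genes were named where called in any comparison, or else by the smallest F-test p in their role, and 3 genes of most like pattern for each of the 3 members with the smallest F-test p. Of each marker list, the summed level is given, with up to 3 called genes. Alternatives were another summary of probe sets, a filter on means under 6, other normalizations, variance models, weights, groups in the fit, sex as a covariate, and leaving out arrays. Promoter sequences are RefSeq's. Figures were drawn with matplotlib 3.10.9.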

Additional observations from a re-analysis of the deposited data

Results flagged for a closer look

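Sfrp2 and Wif1 differed between the mutant lines by the direct test of SmoA2 against Smo/Smo in limma. Smo/Smo mice carry codes with a different prefix, so source and genotype cannot be told apart in this comparison. For Sfrp2 the log2 difference was 1.13 ± 0.06 (adjusted p = 5.392e-05), with 3 of 3 SmoA2 mice above every Smo/Smo mouse. For Wif1 it was -1.004 ± 0.12 (adjusted p = 0.00429), with 3 of 3 SmoA2 mice below every Smo/Smo mouse.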

How the results depend on the processing

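The calls of Sfrp2 and Wif1, in SmoA2 against wild type and against Smo/Smo, held in all 19 alternatives. The log2 fold changes against wild type ranged from 1.22 to 1.29 for Sfrp2 and from -1.34 to -1.08 for Wif1. Sfrp1 in SmoA2 against wild type kept its call in 18 of 19, with 0.50 to 0.63, and was lost only without SmoA2 replicate 3 and wild type replicate 3 together. With an intensity trend and robust eBayes, Dkk3 was called in SmoA2 against wild type (-0.31, adjusted p = 0.0399) and Sfrp1 between the mutant lines (0.29, adjusted p = 0.0280). The mean of its probe sets also called Sfrp1 between the mutant lines (0.37, adjusted p = 0.0350). No member was called in Smo/Smo against wild type in any alternative.

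Signs changed only in values near 0 that were never called. In SmoA2 against wild type, Frzb was -0.027 and Lef1 -0.020 with array weights, -0.0014 and -0.049 with sex as a covariate, and -0.091 and -0.11 with both arrays left out. In that last fit Lef1 was -0.032 and Nkd1 -0.0044 in Smo/Smo against wild type. With 1 array left out, Frzb ran from -0.12 to 0.12, Lef1 from -0.093 to 0.078 and Axin2 from -0.12 to 0.0084 in SmoA2 against wild type. Lef1 ran from -0.032 to 0.14 and Nkd1 from -0.0044 to 0.086 in Smo/Smo against wild type, and Axin2 from -0.016 to 0.11 in SmoA2 against Smo/Smo. Their causes were not tested.

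The number of all genes called moved more, from 215 to 776 around 515 in SmoA2 against wild type, from 21 to 162 around 71 in Smo/Smo against wild type and from 170 to 809 around 490 between the mutant lines. The filter left out Dkk2 and Sfrp5, which gave no value there. No paired analysis was possible because the labels carry animal codes and no replicate numbers shared between groups. Signal at background limits Dkk2, Lef1, Sfrp5 and the low end of Wif1.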

Other observations

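Sostdc1, a secreted antagonist of Wnt and BMP signals that choroid plexus expresses, was singled out after its values were seen. Its log2 intensity was 9.43, 9.60 and 9.60 in SmoA2, 9.97, 9.90 and 9.80 in Smo/Smo, and 8.85, 8.83 and 6.81 in wild type. All mutant mice lay above all wild type mice, and wild type replicate 3 lay lowest by a wide margin. The log2 fold change was 1.38 ± 0.45 in SmoA2 and 1.72 ± 0.45 in Smo/Smo, and neither was called by limma (adjusted p = 0.186 and 0.247). Transthyretin (Ttr), the defining choroid plexus marker, read 11.74, 11.84 and 11.93 in SmoA2, 12.14, 12.03 and 12.04 in Smo/Smo, and 11.39, 11.26 and 4.95 in wild type, so it was in the background range in wild type replicate 3. The part of this tissue in the Sostdc1 values was not tested.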
